A study of Mus musculus with 3 samples.

Results

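The integrin and laminin subunits of the mouse small intestine were described across cell classes and developmental stages. Members were taken by symbol alone, as Itga or Itgb followed by a digit or one of the letters v, x, l, m, d or e, and as Lama, Lamb or Lamc followed by a digit. The rule matched 42 of 22100 gene symbols, of which 18 encode integrin alpha subunits, 9 integrin beta subunits, 5 laminin alpha chains, 3 laminin beta chains and 3 laminin gamma chains. The other 4 symbols (Itgb1bp1, Itgb1bp2, Itgb3bp and Itgbl1) matched by name and encode proteins that bind or resemble integrin beta subunits. They are not subunits, but the counts and medians of members below include them.

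Whole small intestine was taken from wild type, untreated mice before birth (E15.5 and E17.5, embryonic days) and after it (P7, a postnatal day). Viable cells were sorted as an Epcam-positive fraction and an Epcam-negative fraction that was also negative for CD31 and CD45, which removes most endothelial and immune cells and sets the shares of the cell classes. The labels do not say how many animals were pooled. Each stage was 1 droplet library counted as 3′ UMIs, so no difference between stages has a replicate check, no p-value is given, and stage and library cannot be told apart.

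Integrins are cell-surface receptors made of an alpha and a beta subunit that bind extracellular matrix or other cells and couple them to the cytoskeleton. Laminins are cross-shaped trimers of an alpha, a beta and a gamma chain that assemble into the basement membrane, the sheet beneath epithelia and around muscle, nerve and vessel cells. In the intestine, epithelial cells rest on this sheet, and both epithelium and the underlying mesenchyme are known to supply laminin chains. Of the laminin-binding integrins, alpha 6 pairs with beta 4 in hemidesmosomes or with beta 1, while alpha 3 and alpha 7 pair with beta 1.

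The libraries held 93501273 UMIs in 8447 cells at E15.5, 94023160 UMIs in 11598 cells at E17.5 and 116038115 UMIs in 8391 cells at P7. Members took 0.102%, 0.117% and 0.0629% of those UMIs. Cells were clustered with the members left out of the clustering genes, and clusters were named from marker lists. Epithelial-like cells numbered 1257, 1540 and 6047 at E15.5, E17.5 and P7, fibroblast-like cells 3191, 4403 and 1003, smooth-muscle-like cells 1608, 1394 and 552, and neuronal-like cells 601, 922 and 176. Glial-like and interstitial-cell-of-Cajal-like (ICC-like) classes could be named at E17.5 and P7, and a pericyte-like class of 92 cells and an immune-like class of 86 cells at E17.5 alone. The 10 epithelial markers summed to between 8194 and 11089 CPM in epithelial-like cells and between 45.6 and 729 CPM in the other 3 main classes. The lists of the mesenchymal classes were less separate: fibroblast markers summed to 9464 CPM in fibroblast-like and 3409 CPM in smooth-muscle-like cells at E15.5. In the pericyte-like class, fibroblast and smooth muscle markers (4977 and 4962 CPM) exceeded the pericyte markers (3656 CPM). CPM here is a gene's UMIs, summed over the cells of a class, per 1e+06 UMIs of those cells. Each barcode list holds the same 8447 names in all 3 libraries, which is not the number of cells at E17.5 or P7, so cells shared between libraries could not be counted from names.

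Levels are given with 95% exact Poisson intervals and ratios with exact conditional binomial intervals, which cover counting error only. UMIs at the 3′ end depend on each gene's transcript, so levels are compared within a gene, not between genes. A member counts as measured in a class and step where the mean of the 2 stages was at least 5 CPM and at least 2 times the level that free RNA from other classes could give. Without replicates, "called" means a ratio of at least 1.5-fold, and each count of called members is set beside the percentage of all measured genes called in the same way.

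**Figure D1:**
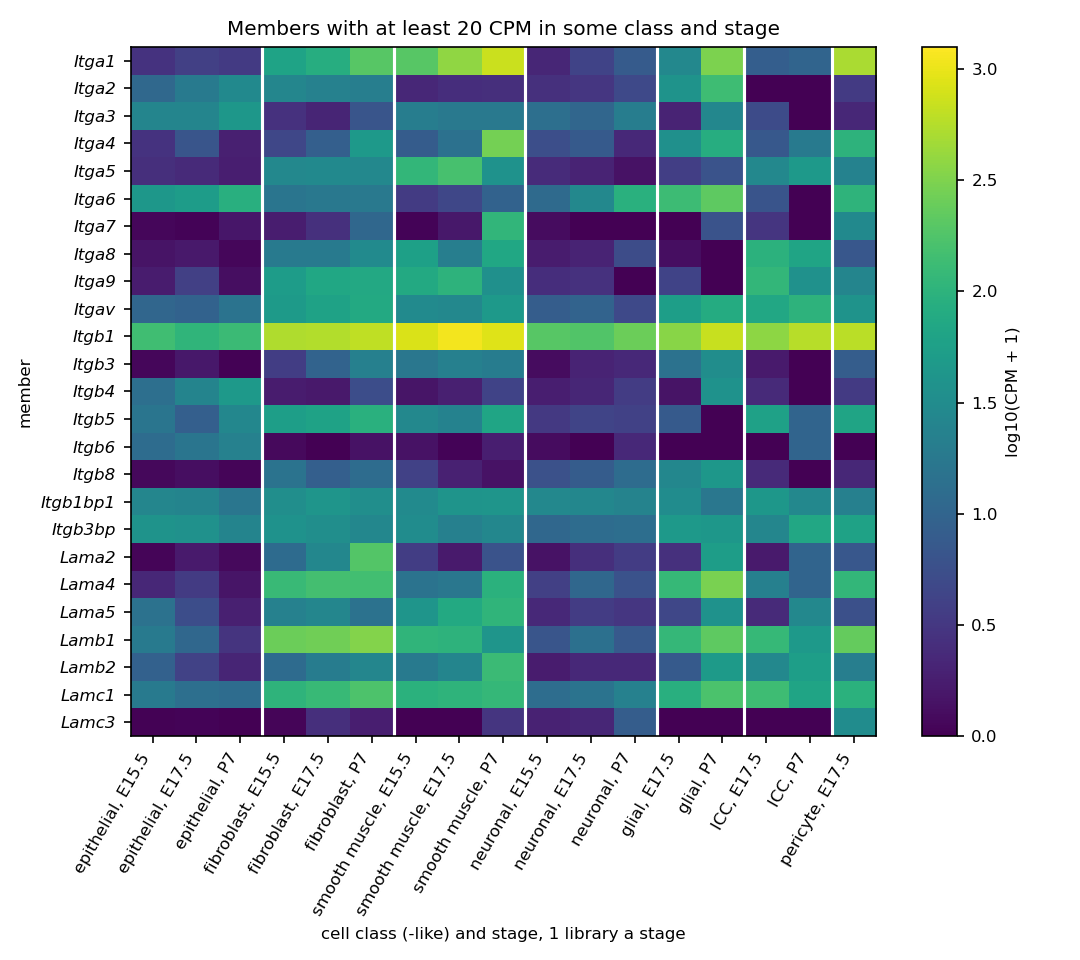
Level of each of the 25 members that reached 20 CPM in some class and stage shown, as log10(CPM + 1), with members in rows and cell classes by stage in columns. Itgb1 is high in every column, Itgb4 and Itgb6 are high in the epithelial columns, Lama2 in the fibroblast column of P7, and Itga1 in the muscle columns.

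Of the 42 members, 25 reached 20 CPM in at least 1 named class and stage, leaving aside the immune-like class. The 27 members with a mean of at least 5 CPM in 1 of the 4 main classes can be ordered by class within each library, and 18 of them had the same highest class at all 3 stages. That class was epithelial-like for 3 members (Itga3, Itgb4 and Itgb6), fibroblast-like for 8 (Itga11, Itgav, Itgb5, Itgb8, Lama2, Lama4, Lamb1 and Lamc1) and smooth-muscle-like for 7 (Itga1, Itga4, Itga5, Itga8, Itgb1, Lama5 and Lamb2). Classes outside the 4 were not ordered and could stand higher. At E17.5, for example, Itga4 was at 34.8 CPM in glial-like cells (230 UMIs) and 13.2 CPM in smooth-muscle-like cells. Itgb1, the common beta subunit of the collagen-, fibronectin- and laminin-binding integrins, was present in every class. Smooth-muscle-like cells held 833, 1094 and 882 CPM of it at the successive stages, and fibroblast-like cells 533, 546 and 644 CPM. Neuronal-like cells followed with 194, 179 and 251 CPM, then epithelial-like cells with 139, 104 and 127 CPM. This order of the 4 classes was the same in each library.

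The members described first in the epithelium are the laminin receptors Itga3, Itga6 and Itgb4, the collagen receptor alpha subunit Itga2, and Itgb6, which pairs with alpha v and activates latent TGF-beta. In epithelial-like cells the level of Itgb4 was 12.7, 24.1 and 45.9 CPM at E15.5, E17.5 and P7, with intervals of 11.4 to 14.1, 22.2 to 26.1 and 44.6 to 47.3. Itga6 stood at 42.3, 50.7 and 88.2 CPM, Itga3 at 24.7, 24.8 and 42.2 CPM, and Itgb6 at 11.3, 15.0 and 21.8 CPM at the same stages. All of these were highest at P7, and Itgb4 was under 5 CPM in the fibroblast-, muscle- and neuronal-like cells of every library. Glial-like cells had 37.0 CPM of Itgb4 at P7, on 7 UMIs.

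From E15.5 to E17.5, 14 of 42 members were measured in epithelial-like cells and 2 were called higher, Itgb4 (log2 ratio 0.93, interval 0.73 to 1.12) and Itga2 (0.83, 0.61 to 1.05), where 9.47% of all measured genes were. Called lower were 4, against 9.91% of all genes: Lama5 (-1.63), Lamb2 (-1.41), Itgb5 (-0.95) and Lamb1 (-0.86). The 3 laminin chains among them were highest at E15.5, when Lama5 was at 13.6 CPM, Lamb1 at 17.7 CPM and Lamb2 at 8.15 CPM. At P7 these stood at 0.890, 1.91 and 1.09 CPM, so the transcripts of these basement membrane chains were low in the postnatal epithelium. The median log2 ratio of the measured members was -0.13, equal to that of all measured genes.

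From E17.5 to P7, 13 members were measured and 7 were called higher, beside 17.3% of all genes. They were Lama3 (4.46, interval 3.76 to 5.27), Itgb5 (1.74), Itgb4 (0.93), Itga6 (0.80), Itga3 (0.77), Itgav (0.76) and Itga2 (0.65). Called lower were 2, beside 9.06% of all genes: Lamb1 (-2.35) and the beta 1 tail-binding protein Itgb1bp1 (-0.68). The median log2 ratio was 0.65 over the members and 0.07 over all genes, and relative to the latter 6 members were higher and 3 lower, beside 14.8% and 11.5% of all genes. Lama3, whose chain forms the laminin that anchors hemidesmosomes, went from 0.656 CPM (16 UMIs) at E17.5 to 14.4 CPM (1394 UMIs) at P7.

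**Figure D2:**
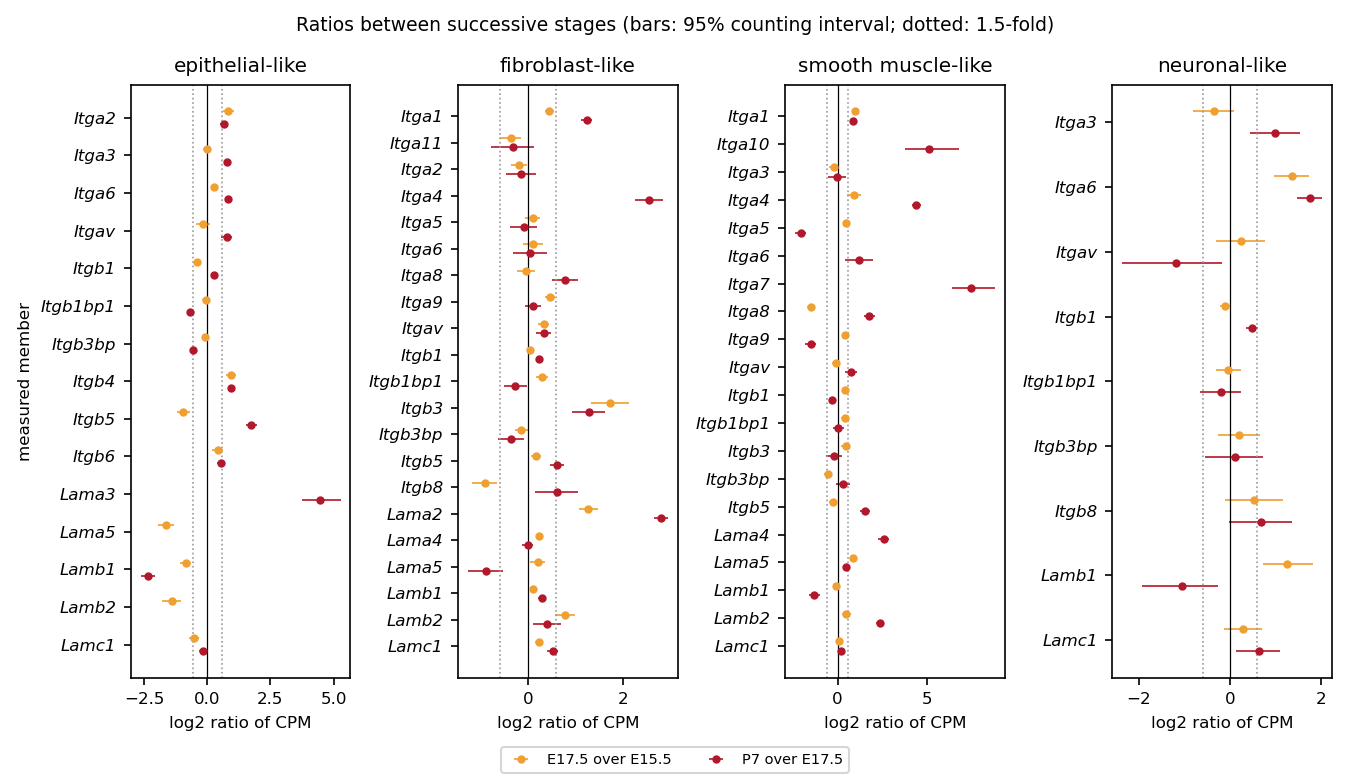
Log2 ratio of CPM between successive stages for each measured member in 4 cell classes, with points for E17.5 over E15.5 and for P7 over E17.5, bars for the 95% counting interval and dotted lines at 1.5-fold. The x axes differ between panels; the points farthest right are Itga7 in muscle at P7, Itga10 in muscle at P7 and Lama3 in epithelium at P7.

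The make-up of the epithelial-like class moved with these ratios. Clusters with at least 2 enterocyte markers among their 10 leading genes held 426 of 1257 epithelial-like cells at E15.5, 402 of 1540 at E17.5 and 3069 of 6047 at P7. Without them, 3 of 12 measured members were called higher from E17.5 to P7 rather than 7, and 12.3% of all genes. Itga6 (1.23), Itga2 (0.96) and Itgb4 (0.70) were then called, while Itga3 (-0.10) turned and Itgb5 (0.0087) and Itgav (0.23) came under 1.5-fold. Lama3 (3.15) was then no longer measured.

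Within the epithelium the same members stood on opposite sides in every library. Clusters led by enterocyte markers such as Apoa1 and Fabp1 were set against undifferentiated clusters, which are led by Epcam with no second enterocyte, goblet or enteroendocrine marker and at P7 also by the stem and progenitor marker Olfm4. These groups and those below were chosen after the levels were seen, need a mean of 5 CPM over both groups, and carry no free-RNA limit. Itga6 was at 20.7 CPM in enterocyte clusters and 48.9 CPM in undifferentiated clusters at E15.5, 17.1 against 59.0 CPM at E17.5, and 39.5 against 158.7 CPM at P7. Itga2 was at 3.77 against 11.2 CPM, 4.998 against 18.3 CPM and 15.7 against 39.4 CPM. Both receptor subunits were thus lower in enterocyte clusters in all 3 libraries.

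Itga3 ran the other way. It was at 35.5 CPM in enterocyte clusters and 18.6 CPM in undifferentiated clusters at E15.5, 42.4 against 16.6 CPM at E17.5, and 62.2 against 14.4 CPM at P7. Itgb4 stood at 15.6 against 9.96 CPM, 47.3 against 13.7 CPM and 63.3 against 21.8 CPM. The vitronectin receptor subunit Itgb5 stood at 20.01 against 12.8 CPM, 13.9 against 5.28 CPM and 42.1 against 5.35 CPM. The enterocyte side of Itga3 was 1.91-fold, 2.55-fold and 4.31-fold higher at the 3 stages.

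Itgb6 differed by at least 1.5-fold at P7 alone, with 29.8 CPM in enterocyte clusters and 11.6 CPM in undifferentiated clusters. Lama3 at P7 was at 24.9 CPM in enterocyte clusters, 0.944 CPM in undifferentiated clusters and 1.16 CPM in goblet clusters. Called higher in enterocyte clusters were 3 of 14 members at E15.5, 4 of 11 at E17.5 and 7 of 12 at P7, beside 12.6%, 22.3% and 26.5% of all genes. Called lower were 4, 3 and 3, beside 15.3%, 27.5% and 32.5%, and Itga6, Itga2 and the centromere-associated Itgb3bp were called at each stage. Itga3 and Itgb4 were therefore high, and Itga6 low, in the same clusters. Enterocyte cells had a median of 21073.5, 17735.5 and 17200 UMIs and undifferentiated cells 22164, 17062 and 14665 UMIs.

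**Figure D3:**
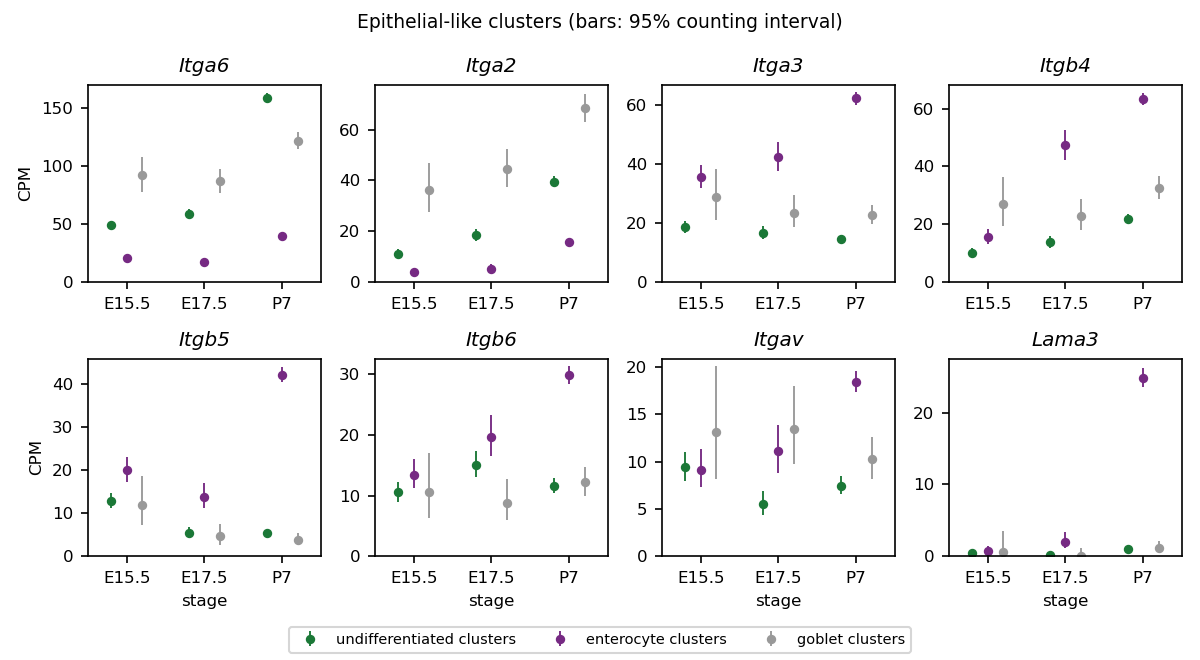
CPM of 8 members by stage in undifferentiated, enterocyte and goblet clusters of epithelial-like cells, with bars for the 95% counting interval. Itga6 and Itga2 are lowest in enterocyte clusters and Itga3 is highest there at every stage; Lama3 is above 20 CPM in the enterocyte clusters of P7 alone.

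Goblet clusters have at least 2 goblet markers among their 10 leading genes. They shared high Itga6 (92.1, 86.8 and 121.8 CPM) and held the highest Itga2 of the 3 groups (36.4, 44.5 and 68.5 CPM). The defensin gene Defa24 was among the leading genes of the goblet clusters at all 3 stages. At P7 it came first in both goblet clusters. The larger P7 cluster, of 513 of the 768 cells, also had Defa17. Its leading genes include the goblet markers Spink4, Agr2, Tff3 and Fcgbp but not Muc2 or Clca1. Itgb7, which pairs with alpha 4 or alpha E and is known from lymphocytes, reached 59.9 CPM in the 109 enteroendocrine-cluster cells at E17.5, with Itga4 at 45.0 CPM in the same cells. At E15.5 the enteroendocrine cluster of 54 cells had 23.1 CPM of Itgb7 and 24.9 CPM of Itga4, and at P7 the 235 such cells had 16.3 and 31.0 CPM. In undifferentiated clusters Itga4 was at 0.928, 2.26 and 0.346 CPM. Immune markers summed to 52.2, 123 and 0.859 CPM in epithelial-like cells as a whole. No such sum was taken in the enteroendocrine clusters alone, and the part of immune RNA in these values was not tested.

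The stretches before the starts of Itga3 and Itgb6 are shown because both genes are highest in epithelial-like cells at all 3 stages and both were higher in the enterocyte clusters of P7. They are the 250 bases upstream of the RefSeq start on GRCm38.p6, Itga3 at chr11:95076715-95076964 and Itgb6 at chr2:60722604-60722853, both on the minus strand. Capitals mark the GC box CCGCCC on either strand.
Itga3: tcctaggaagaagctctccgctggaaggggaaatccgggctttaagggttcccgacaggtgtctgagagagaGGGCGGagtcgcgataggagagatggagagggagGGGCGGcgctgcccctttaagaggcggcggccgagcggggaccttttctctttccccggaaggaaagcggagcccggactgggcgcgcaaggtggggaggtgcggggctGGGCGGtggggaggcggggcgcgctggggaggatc
Itgb6: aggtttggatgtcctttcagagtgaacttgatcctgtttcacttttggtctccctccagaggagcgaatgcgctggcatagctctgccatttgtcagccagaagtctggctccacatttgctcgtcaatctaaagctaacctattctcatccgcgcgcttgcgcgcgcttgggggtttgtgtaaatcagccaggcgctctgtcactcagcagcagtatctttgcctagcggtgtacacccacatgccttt
The Itga3 stretch holds 3 such matches and is 67.6% G or C, and the Itgb6 stretch holds 0 and is 52.0% G or C. A promoter was listed for 27 of the 42 members, and 9 of the 27 hold CCGCCC in this window, beside 32.9% of 27025 promoters of all genes. The activator protein 1 motif TGANTCA is in 1 of the 27 (Itgax) and in 6.87% of all promoters, and the TEAD motif CATTCC is in 2 (Itga10 and Itgb1) and in 12.6% of all. No value here measures binding at these stretches.

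Of the laminin chains, Lama5 and Lamb2 were highest in smooth-muscle-like cells among the 4 main classes at every stage. Fibroblast-like cells held the highest Lama2, Lama4, Lamb1 and Lamc1 of these classes. Lamb1 was at 248.8, 269 and 330 CPM at E15.5, E17.5 and P7, Lamc1 at 103, 120 and 172 CPM, and Lama4, whose chain is typical of vessels and mesenchyme, at 125.5, 147 and 146 CPM. Lama2, the alpha chain known from the muscle and nerve basement membrane, stood at 11.1, 26.6 and 184 CPM, with intervals of 9.85 to 12.4, 24.5 to 28.7 and 172 to 196. Of the 5 laminin alpha chains, Lama2 alone was called higher at both steps in these cells. Among the 4 main classes, the integrin subunits highest in these cells included Itgav (48.4, 60.7 and 76.0 CPM), Itgb5 (54.0, 60.4 and 92.2 CPM), which pairs with it, and the collagen receptor subunit Itga11 (15.6, 12.1 and 9.70 CPM).

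From E15.5 to E17.5, 20 members were measured in fibroblast-like cells and 3 were called higher, beside 9.33% of all genes: Itgb3 (1.72), Lama2 (1.26) and Lamb2 (0.78). Itgb8, which with alpha v also activates TGF-beta, was the 1 member called lower (-0.92), beside 11.6% of all genes. From E17.5 to P7, 21 were measured and 7 called higher, beside 18.7%: Lama2 (2.79), Itga4 (2.54), Itgb3 (1.27), Itga1 (1.23), Itga8 (0.78), Itgb5 (0.61) and Itgb8 (0.61). Lama5 was the 1 called lower (-0.89), beside 7.34%. The members' median log2 ratio was 0.18 and 0.30 at these steps, that of all genes -0.11 and 0.13.

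The Lama5 value turned on 1 kind of fibroblast-like cell. Clusters with Pdgfra among their leading genes, alongside Bmp3 at E15.5 and E17.5, held 434 cells at E15.5, 557 at E17.5 and 87 at P7. Pdgfra-high cells beneath the epithelium are known as a source of signals to it. In these clusters Lama5 was at 184.7 and 207.0 CPM in the E15.5 and E17.5 libraries, and in the other fibroblast-like clusters at 6.004 and 3.88 CPM. The difference was 30.8-fold (log2 interval 4.67 to 5.22) and 53.3-fold (5.40 to 6.09).

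Other matrix receptors and chains followed Lama5 in both embryonic libraries. Itga2 was at 145.7 and 133.3 CPM in the Pdgfra-led clusters against 13.4 and 9.03 CPM elsewhere, and Itga11 at 66.1 and 59.5 CPM against 10.6 and 6.46 CPM. Itgb8 was at 52.5 and 27.6 CPM against 10.5 and 5.19 CPM. Lamc1 was 3.64-fold and 3.63-fold higher, Lamb1 2.82-fold and 2.80-fold, Lama4 2.79-fold and 2.62-fold, and Itga1 3.00-fold and 2.65-fold. All 3 chains of a laminin made of Lama5, Lamb1 and Lamc1 were thus higher in the same fibroblast-like clusters.

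Lama2 was the reverse, at 0.821 and 1.58 CPM (2 and 4 UMIs) in the Pdgfra-led clusters and 12.1 and 29.5 CPM in the others. Of 19 members measured at E15.5 and the 21 measured at E17.5, 9 and 8 were called higher in the Pdgfra-led clusters, beside 15.2% and 16.3% of all genes, and 3 and 4 lower, beside 22% and 18.1%. The 8 called higher at E17.5 (Itga1, Itga2, Itga11, Itgb8, Lama4, Lama5, Lamb1 and Lamc1) were among the 9 of E15.5.

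At P7 the single Pdgfra-led cluster was of another kind, led by Fibin and Gdf10 and without Bmp3 among its leading genes. Its Lama5 was at 3.69 CPM (1 UMI), Itga2 at 3.69 CPM (1 UMI) and Itga11 at 0 UMIs, while Lama2 stood at 302.3 CPM, Lama1 at 55.3 CPM (15 UMIs) and Itga5 at 88.5 CPM. Lama1 was under 5 CPM in every class at every stage. Called higher there were 11 of 26 members, beside 27.3% of all genes, and lower 9, beside 21.6%, on 271261 UMIs in all. With every Pdgfra-led cluster left out, Lama5 in fibroblast-like cells turned to 1.88 on the log2 scale from E17.5 to P7, 11 of 21 members were called higher and 0 lower, beside 19.1% and 7.51% of all genes.

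**Figure D4:**
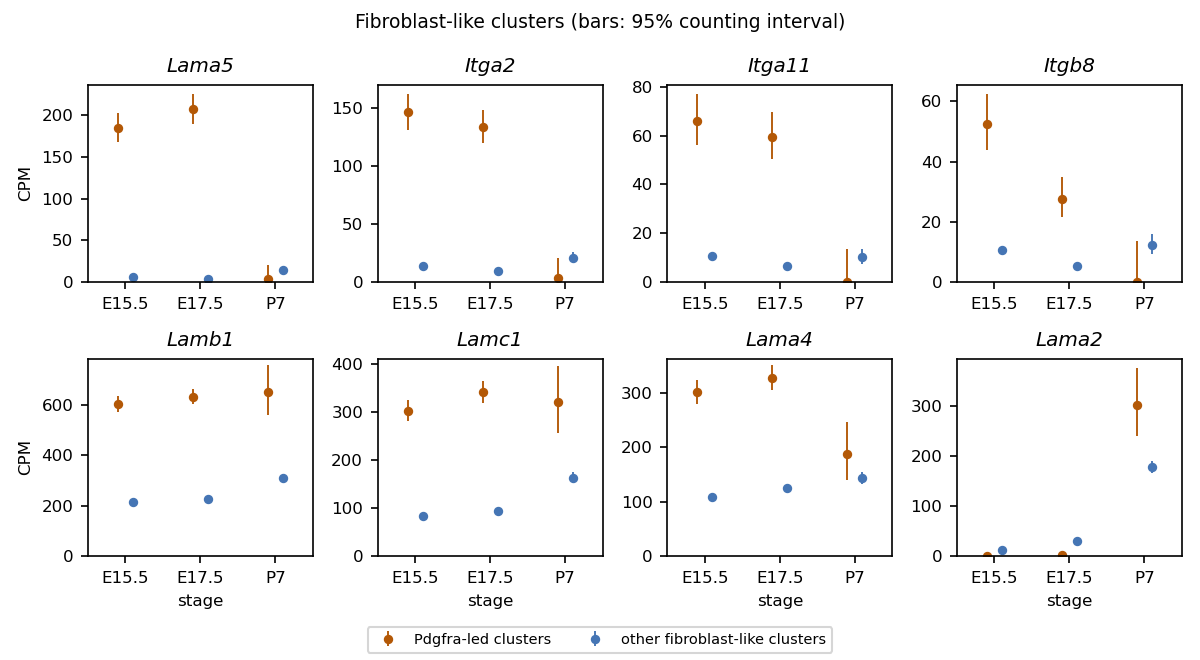
CPM of 8 members by stage in Pdgfra-led and other fibroblast-like clusters, with bars for the 95% counting interval. Lama5, Itga2, Itga11 and Itgb8 are high in the Pdgfra-led clusters of E15.5 and E17.5 and not in that of P7, and Lama2 is high at P7 in both.

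Smooth-muscle-like cells held the collagen receptor subunit Itga1 at 194, 385 and 703 CPM and the fibronectin receptor subunit Itga5 at 112, 156 and 37.1 CPM at E15.5, E17.5 and P7. Itga8, the nephronectin receptor subunit, was at 56.5, 20.2 and 69.7 CPM. Lama5 was at 40.4, 74.8 and 105 CPM and Lamb2 at 17.8, 24.9 and 130.3 CPM. From E15.5 to E17.5, 16 members were measured and 3 called higher, beside 5.86% of all genes: Itga1 (0.99, interval 0.92 to 1.06), Itga4 (0.92) and Lama5 (0.89). Itga8 was called lower (-1.48), the only 1 of the 16 beside 26.6% of all genes.

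In this step the median log2 ratio of all genes was -0.33 and that of the members 0.40. The summed muscle markers were at 31540 and 71019 CPM at these stages and erythroid markers at 447 and 11204 CPM, and their part in the shift was not tested. Relative to the median of all genes, 9 of the 16 members were called higher and 1 lower, beside 11.9% and 9.8% of all genes. The scale therefore changed the members' count and not the sign of any called member.

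The muscle-like clusters differed in kind between stages. At E15.5 and E17.5 some were led by Actg2 without Lsp1 and others had Lsp1 among their leading genes. At P7, 461 of the 552 cells formed a cluster led by Eln, the elastin gene, and 91 a cluster led by Actg2 and Des, visceral muscle genes. Itga8 marked the Lsp1-led clusters, at 118.3 CPM against 3.57 CPM in the Actg2-led clusters at E15.5 and 115.5 against 5.52 CPM at E17.5. The Lsp1-led clusters held 813 of 1608 muscle-like cells at E15.5 and 269 of 1394 at E17.5.

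Lama5 did the opposite, at 72.9 CPM in Actg2-led clusters against 2.47 CPM in Lsp1-led clusters at E15.5 and 85.9 against 3.19 CPM at E17.5. Itga1 was at 295.0 against 76.2 CPM and 425.7 against 123.8 CPM, and Itga5 at 149.2 against 68.2 CPM and 163.6 against 104.0 CPM. The interval of Lama5 spanned a log2 difference of -5.70 to -4.17 at E15.5. Lama4 was higher on the Lsp1 side, at 24.7 against 5.29 CPM and 52.3 against 10.2 CPM, as was the alpha v partner Itgb5 at 40.4 against 14.8 CPM and 53.6 against 17.7 CPM. Over the whole muscle-like class Lama4, at a mean of 15.0 CPM, did not pass the free-RNA limit from E15.5 to E17.5. The part of free RNA in its values in these clusters was not tested.

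Of 17 members measured at E15.5 and the 20 measured at E17.5, 4 and 8 were called higher in the Lsp1-led clusters, beside 17.6% and 26.8% of all genes, and 6 and 6 lower, beside 8.64% and 11%. The 6 lower ones were Itga1, Itga3, Itga4, Itga5, Itgb3 and Lama5 in both libraries. When only clusters led by both Actg2 and Des were kept, which at E15.5 is 1 Actg2-led cluster and at E17.5 includes the Lsp1-led one, the log2 ratio from E15.5 to E17.5 was -0.024 for Lama5, 3.08 for Itga8 and 0.36 for Itga1. With these unlike sets of clusters the step values of Lama5 and Itga8 in muscle-like cells took the opposite sign. The sets differ between the stages, so these values do not give a change within 1 kind of cluster. Within Actg2-led clusters Lama5 was at 72.9 CPM at E15.5 and 85.9 CPM at E17.5. Within Lsp1-led clusters Itga8 was at 118.3 CPM at E15.5 and 115.5 CPM at E17.5. The share of Lsp1-led cells in the class differed between these stages, and its part in the class ratios was not tested.

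The 250 bases before Lama5 and Itga1 are shown because both were high in the Actg2-led clusters of both embryonic libraries. They lie at chr2:180225860-180226109 for Lama5 and chr13:115101965-115102214 for Itga1, both on the minus strand of GRCm38.p6, from RefSeq, with CCGCCC on either strand in capitals.
Lama5: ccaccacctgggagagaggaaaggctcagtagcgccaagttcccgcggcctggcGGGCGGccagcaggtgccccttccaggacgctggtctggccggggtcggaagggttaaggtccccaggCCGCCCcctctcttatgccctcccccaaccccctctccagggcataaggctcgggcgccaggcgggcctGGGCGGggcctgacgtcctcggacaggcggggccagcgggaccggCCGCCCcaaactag
Itga1: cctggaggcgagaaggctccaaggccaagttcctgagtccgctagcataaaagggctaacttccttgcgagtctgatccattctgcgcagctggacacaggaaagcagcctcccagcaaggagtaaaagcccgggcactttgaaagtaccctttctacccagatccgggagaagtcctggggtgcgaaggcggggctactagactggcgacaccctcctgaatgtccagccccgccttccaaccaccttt
The Lama5 stretch holds 4 matches and is 72.4% G or C, and the Itga1 stretch holds 0 and is 57.6% G or C. The serum response factor motif known as the CArG box was in neither, in 1 of the 27 listed members (Lama2) and in 1.40% of all promoters. These are descriptions of letters and not of binding.

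From E17.5 to P7, 20 members were measured in muscle-like cells and 10 were called higher, beside 33% of all genes. The 5 with the highest log2 ratios were Itga7 (7.50), Itga10 (5.11), Itga4 (4.42), Lama4 (2.58) and Lamb2 (2.39), followed by Itga8, Itgb5, Itga6, Itga1 and Itgav. Itga6 was at 8.37 CPM at P7, on 21 UMIs. Free RNA of epithelial-like cells was put at 4.91% of its source level in this class at P7, and its part in the Itga6 value was not tested. Itga7, the laminin receptor subunit of muscle, was at 0.0712, 0.598 and 108 CPM at the 3 stages, on 1, 7 and 271 UMIs. Itga4, which binds fibronectin and VCAM1, was at 6.98, 13.2 and 283 CPM. Called lower were 3, beside 10.7%: Itga5 (-2.07), Itga9 (-1.52) and Lamb1 (-1.30). The members' median was 0.63 and that of all genes 0.30, and relative to the latter 8 members were higher and 4 lower, beside 20.6% and 19% of all genes.

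Of these 10, Itga4, Itga7, Itga8, Itga10, Itgb5 and Lamb2 were also higher by at least 1.5-fold in the Eln-led cluster than in the Actg2-led one. In the Eln-led cluster Itga4 was at 369.4 CPM, Itga7 at 137.3 CPM, Lamb2 at 151.0 CPM and Lama5 at 126.3 CPM, against 14.8, 16.4, 65.7 and 39.4 CPM in the Actg2-led cluster of P7. Itga9, Itgb3 and Itga5 were at 7.37, 4.21 and 13.7 CPM in the Eln-led cluster and at 121.5, 65.7 and 110.0 CPM in the Actg2-led one. Called higher in the Eln-led cluster were 7 of 21 members, beside 28.9% of all genes, and lower 4, beside 19.6%.

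Kept to clusters led by Actg2 and Des, the log2 ratio from E17.5 to P7 was 4.78 for Itga7, 2.71 for Lama4, 1.40 for Lamb2, 0.16 for Itga4 and -0.50 for Itga5, and 0.27 for Itga9, which changed sign. The clusters kept include an Lsp1-led cluster at E17.5 and not at P7, so these ratios also compare unlike sets. Pericyte markers summed to 379, 475 and 2355 CPM in the muscle-like class at the 3 stages and endothelial markers to 12.9, 14.4 and 234 CPM. Their part in the P7 values was not tested.

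**Figure D5:**
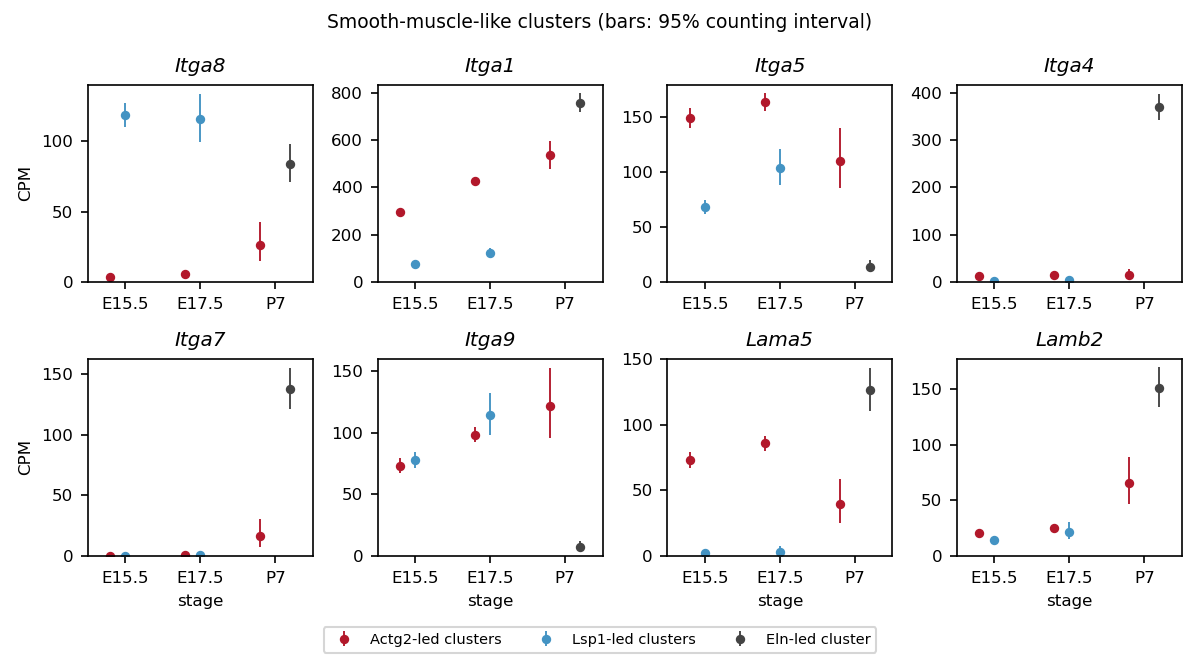
CPM of 8 members by stage in Actg2-led, Lsp1-led and Eln-led clusters of smooth-muscle-like cells, with bars for the 95% counting interval. Itga8 is high in Lsp1-led clusters and Lama5 in Actg2-led clusters of both embryonic libraries, and Itga4 and Itga7 are high in the Eln-led cluster of P7.

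Cells with pericyte markers, the mural cells of small vessels, stood out by Lamc3. The pericyte-like class of E17.5 had Lamc3 at 31.0 CPM, while the 4 main classes were at 7.16 CPM or less in every library. No pericyte-like class was named at P7 for comparison. The pericyte-first clusters, named or not, had Itga1 at 288.7 CPM at E15.5 and 496.9 CPM at E17.5, Itga6 at 75.8 and 97.2 CPM, Itga4 at 51.1 and 85.0 CPM and Lama4 at 97.8 and 156.3 CPM. Their Lamc3 was at 1.57 CPM at E15.5 and 25.2 CPM at E17.5.

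Neuronal-like cells had few members. From E15.5 to E17.5, 9 were measured and 2 called higher, beside 5.69% of all genes, Itga6 (1.36) and Lamb1 (1.25), with 0 called lower beside 5.34%. From E17.5 to P7, 4 of 9 were called higher, beside 30.1%: Itga6 (1.75), Itga3 (1.00), Itgb8 (0.68, interval -0.03 to 1.36) and Lamc1 (0.63). Called lower were 2, beside 10.3%: Itgav (-1.18, on 9 UMIs at P7) and Lamb1 (-1.05). Relative to the median of all genes at that step (0.23), 2 members were higher and 2 lower, beside 20.3% and 17.2% of all genes. Itga6, a subunit of laminin receptors, stood at 10.7, 27.4 and 92.2 CPM, with intervals of 8.42 to 13.4, 24.0 to 31.1 and 80.4 to 105. Its level at P7 lay within counting error of that in epithelial-like cells. The P7 class was 176 cells from 1 cluster led by Vip, and erythroid markers summed to 5005, 23812 and 17.3 CPM across the stages.

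Glial-like cells, which ensheath enteric neurons, held Itga6 at 131.8 CPM at E17.5 and 211 CPM at P7, Itga2 at 38.3 and 137 CPM, Lama4 at 118 and 296 CPM, and Itgb8 at 25.9 and 42.3 CPM. These were the highest values of Itga6, Itga2, Lama4 and Itgb8 among the named classes at P7. Itgb3 was at 13.9 and 31.7 CPM, on 6 UMIs at P7. The P7 class had 66 cells and 189260 UMIs, and its epithelial and fibroblast markers summed to 819 and 1231 CPM beside 40.1 and 293 CPM at E17.5. Itga1, at 27.2 and 306 CPM in this class, moved with these sums, and their part in it was not tested.

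ICC-like cells, the pacemakers of gut movement, held the highest Itga9 of any named class at E17.5 (111 CPM, with 36.0 CPM on 4 UMIs at P7) and the highest Itga8 (96.3 CPM, with 62.9 CPM on 7 UMIs). For Itga9 at E17.5 this rests on 163 UMIs, and the 100.5 CPM of smooth-muscle-like cells (1177 UMIs) lay within counting error of it. In ICC-like cells Itgav was at 70.3 and 98.9 CPM. The name-matched Itgb1bp1 and Itgb3bp were at 42.3 and 25.3 CPM in these cells at E17.5 (27.0 and 71.9 CPM at P7, on 3 and 8 UMIs) and lay between 9.85 and 60.9 CPM in every class of E15.5 and E17.5. At P7 this class was 32 cells.

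The other 17 members were under 20 CPM in every named class and stage outside the immune-like class. The leukocyte integrin subunits Itgad, Itgae, Itgal, Itgam, Itgax and Itgb2 were between 0 and 2.39 CPM in these classes, in libraries from which CD45-positive cells were sorted away, and Itgb2l was at 0.0932 CPM or less. The 86 immune-like cells of E17.5 held Itgal at 28.0 CPM (30 UMIs), Itgb2 at 26.2 CPM (28 UMIs), Itgam at 10.3 CPM, Itgae at 8.41 CPM and Itgax at 6.54 CPM, with Itgad at 0 UMIs. Itgb7 was at 77.5 CPM and Itga4 at 334 CPM in the same cells. Itgad had 0 UMIs in the whole E15.5 and P7 libraries, and Itgax had 0 at P7. Lamb3, whose chain joins that of Lama3 in hemidesmosomal laminin, was at 3.84, 0.369 and 2.41 CPM in epithelial-like cells at E15.5, E17.5 and P7. Outside the immune-like class, Lama1 was at most 4.65 CPM, Itga2b, Itgb7, Itgb1bp2 and Itgbl1 at most 8.99, 8.36, 5.28 and 1.26 CPM, and Itga10 and Itga11 at most 14.7 and 15.6 CPM. Gm49368 and Usp19 lie within 1 kb of the 3′ ends of Itgam and Lamb2 on the same strand, so UMIs of each pair may be hard to tell apart.

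Genes that work with the members were counted from 5 lists of known partners, with percentages of all genes as given for each step above. Of 6 hemidesmosome genes, 3 were measured in epithelial-like cells, and all 3 were called higher from E17.5 to P7: Dst (1.07), Plec (0.95) and Cd151 (0.79). Dst and Plec link the beta 4 subunit to keratin filaments, and Cd151 binds laminin-receptor integrins. The same 3 were called higher at that step in fibroblast-like cells and in muscle-like cells. Of 26 genes of integrin activation and focal adhesions, 20 were measured in epithelial-like cells, with 5 called higher and 3 lower from E17.5 to P7, and among the kindlins Fermt1 was at 0.61 and Fermt2 at -3.48.

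The basement membrane list of 21 genes gave 7 higher and 0 lower of 15 measured in fibroblast-like cells from E15.5 to E17.5, and 8 higher and 3 lower of 17 from E17.5 to P7. Col18a1 (2.26 and 1.63) and Nid1 (0.69 and 1.18), which bridges laminin to collagen IV, were called at both steps, while Smoc1 was at -3.76 at the second. In muscle-like cells the list gave 10 higher and 5 lower of 17 from E17.5 to P7, with Col18a1 at 6.96. Epithelial-like cells had 3 higher and 4 lower of 8 from E15.5 to E17.5, led downward by the heparan sulfate proteoglycans Hspg2 (-1.94) and Agrn (-1.38).

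Of 23 listed integrin ligands found in the files, 18 were measured in fibroblast-like cells from E17.5 to P7, with 12 called higher and 1 lower, and a median log2 ratio of 1.00. Ccn3 (4.80), Tnxb (4.12) and Vtn (3.92) were the highest, and Tnc, a ligand of alpha 9 and alpha 8 integrins, was at 2.46. Of 12 laminin receptors outside the integrins, all measured in muscle-like cells, 7 were called higher and 0 lower at that step, among them Mcam (3.01), Bcam (3.098), a receptor for the chain of Lama5, and Utrn (1.90), of the dystroglycan complex. In epithelial-like cells Bcam was at -1.34 from E15.5 to E17.5, the step in which Lama5 was at -1.63.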

How the data were processed

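Small intestine cells of 3 stages were measured as 3′ single-cell libraries, 1 per stage. The authors deposited raw UMI counts per gene and cell; per the submitters' processing notes, Cell Ranger 7.2.0 was used, with mm10 and GRCm38 both listed as builds. The deposited cells held 501 to 6989 genes and under 15% mitochondrial UMIs. Scrublet in scanpy 1.11.5 removed 243, 453 and 389 doublets. Each library was clustered alone (2000 variable genes without the members, 30 components, 15 neighbours, leidenalg 0.10.2 at resolution 1), and clusters were named from markers of 11 classes. Counts were summed per class and scaled to CPM. With 1 library per stage, ratios carry exact intervals from scipy 1.17.1 for counting error only, and no test was run; the ratio step was tested on simulated data. The rule named every member at 20 CPM or more in its highest class, up to 5 highest and 5 lowest measured ratios per class and step, and up to 3 of each kind per companion list; other genes, including the cluster groups' members, were chosen after their values were seen. Members, lists and the naming rule were chosen with earlier results of these data known. Alternatives are listed in the closing section. The values of 1 member are not reported here.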

Additional observations from a re-analysis of the deposited data

Results flagged for a closer look

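Over the same step, 4 members passed 1.5-fold in opposite directions among the epithelial-, fibroblast-, smooth-muscle- and neuronal-like classes, the ones compared in this way, each class being 1 library per stage; the differences between classes were not tested. From E15.5 to E17.5, Lama5 had a log2 ratio of 0.89 in smooth-muscle-like cells and -1.63 in epithelial-like cells. Lamb1 had 1.25 in neuronal-like and -0.86 in epithelial-like cells. Lamb2 had 0.78 in fibroblast-like and -1.41 in epithelial-like cells. From E17.5 to P7, Itgav had 0.76 in epithelial-like and 0.76 in smooth-muscle-like cells and -1.18 in neuronal-like cells, where it rests on 9 UMIs at P7. With clusters led by both Actg2 and Des kept alone, the muscle value of Lama5 was -0.024. The clusters so kept include an Lsp1-led cluster at E17.5 and not at E15.5, so unlike sets are compared. Within Actg2-led clusters Lama5 was at 72.9 CPM at E15.5 and 85.9 CPM at E17.5. The part of the changed share of Lsp1-led cells in the class value was not tested.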

How the results depend on the processing

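No paired analysis was possible because each stage is 1 library. Of the 52 ratios past 1.5-fold, recomputed 511 times over the alternatives, 506 kept their sign and 452 also stayed past 1.5-fold. Of 214 recomputed counts of members, 176 stayed within 1.5 times. The other 38 follow, and their causes were not tested. The number of members measured and the share of all genes called can also change with the setting and are not listed here. These counts therefore show how far the numbers move and are not results about the members. The numbers of members with the same highest class at all stages stayed within 1.5 times in every run. Leaving out the guard against free RNA moved no count beyond 1.5 times. Without doublet removal, 4 members were lower in fibroblast-like cells at E17.5, and 2 higher and 1 lower in neuronal-like cells at P7 (each against the stage before). At clustering resolution 0.5, fibroblast-like cells had 3 higher and 2 lower at P7, muscle-like cells 0 higher and 2 lower at E17.5, and neuronal-like cells 1 lower at P7; at resolution 2, neuronal-like cells had 5 higher at E17.5. With the libraries clustered together, fibroblast-like cells had 5 higher at E17.5, and 4 higher and 2 lower at P7; with members among the clustering genes they had 5 higher at E17.5. A marker gate per cell gave 2 lower in fibroblast-like cells at each step, and 1 higher and 2 lower in muscle-like cells at E17.5. Keeping cells of 1000 genes and under 10% mitochondrial UMIs gave 4 higher in fibroblast-like cells at P7. Scaling by the median ratio gave 9 higher in muscle-like cells at E17.5 and 2 in neuronal-like cells at P7. A minimum of 20 UMIs in place of 5 CPM gave 7 higher and 8 lower in epithelial-like cells at E17.5 and 8 lower at P7, 3 lower in fibroblast-like and 4 in muscle-like cells at E17.5, and 8 higher in neuronal-like cells at P7. A minimum of 10 CPM gave 2 lower in epithelial-like cells at E17.5, 1 there at P7, and in neuronal-like cells 1 higher at E17.5 and 0 lower at P7. The mean of CPM per cell gave 1 lower in neuronal-like cells at P7. With clusters led by Actg2 and Des alone, muscle-like cells had 1 higher at E17.5 and 5 at P7, while Lama5 (-0.024) and Itga8 (3.08) at E17.5 and Itga9 (0.27) at P7 changed sign. The clusters so kept include an Lsp1-led cluster at E17.5 and not at E15.5 or P7, so unlike sets are compared. Both remaining alternatives were chosen after seeing the data. Without Pdgfra-led clusters, fibroblast-like cells had 2 lower at E17.5, and 11 higher and 0 lower at P7, with Lama5 at 1.88. Without enterocyte clusters, epithelial-like cells had 1 higher at E17.5 and 3 at P7, with Itga3 at -0.10. Depth was lowest in the ICC- and glial-like cells of P7 (111222 and 189260 UMIs) and the pericyte-like cells of E17.5 (837606 UMIs).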

Other observations

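Small clusters outside the comparisons held high levels of some members. A cluster of 63 cells at E15.5 led by Ctrb1 and other genes of pancreatic enzymes, left unnamed, had Itga6 at 281 CPM (interval 256 to 309), beside 42.3 CPM in epithelial-like cells. A cluster of 30 epithelial-like cells at P7 led by Spp1 and Clu had Lama4 at 100.6 CPM on 22 UMIs, beside 0.497 CPM in epithelial-like cells as a whole. These clusters were chosen after their values were seen, and nothing was tested on them.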
